A study of Mus musculus with 13 samples.

Results

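The third complementarity-determining region of the T cell receptor α chain (CDR3α) was examined where it was long, that is, 16 residues or more counted from its first cysteine to the phenylalanine or tryptophan that closes it. Members were rows of the clonotype tables whose CDR3 translated without a stop or frameshift and whose segments were named as a TRAV and a TRAJ gene. The 13 samples held 78425 such functional clonotypes, of which 4531 (5.78%) were long and carried 414637 counts (5.43% of functional counts). They were compared with the 69607 clonotypes of 12 to 15 residues, and a further 4287 clonotypes were shorter than 12 residues. Clonotypes were told apart within a sample by their CDR3 nucleotide sequence and by the V and J genes assigned to it. Across samples the long members made up 4135 distinct nucleotide clonotypes and 3640 distinct amino-acid sequences.

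All samples came from male C57BL/6 mice of the genotype Foxp3LSL/yCd4creERT2, in which a removable stop cassette silenced the only copy of Foxp3, the gene that specifies regulatory T (Treg) cells. At postnatal day 14 every mouse received a single dose of 4-OHT (4-hydroxytamoxifen). It activated the Cre-ERT2 recombinase encoded by the Cd4creERT2 allele, which restored Foxp3 together with a GFP reporter, so that no group was untreated. GFP-positive CD4 T cells were sorted from spleen and lymph node, pooled per the study's methods, at 1.5 months (n = 2, mice of 8 weeks), 3 months (n = 4, 3.5 months old), 5 months (n = 2, 5.5 months old) or 7 months (n = 5, 7.5 months old) later, and Trac transcripts were sequenced after 5′ RACE. The recombinase can act in any T cell that expresses Cd4, and the tables list receptor segments only, so the cell type could not be checked against marker genes.

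An α chain is built in the thymus when one of many V segments is joined to one of many J segments. Nucleases trim the ends, and the enzyme TdT adds bases that no germline segment encodes. The CDR3 spans this junction and lies over the centre of the peptide-MHC surface when the receptor binds. Its length is therefore set by the V end, the J start, the trimming and the inserted bases, and a rearrangement out of frame can be transcribed although it makes no receptor chain.

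The germline segments differ in how many bases they bring into the CDR3, and the following sequences show this for segments that were common or rare among long clonotypes. They were taken from GENCODE on GRCm38, with the part that enters the CDR3 in capitals. All lie on the plus strand of chromosome 14, in the order printed at chr14:54186101-54186166, chr14:54217836-54217901, chr14:54187895-54187951, chr14:54174742-54174798, chr14:53559632-53560247, chr14:53351028-53351621 and chr14:52990866-52991389, and each is a coding segment. J genes are printed whole, and of V genes, whose coordinates are those of the whole gene, the last bases are printed from 30 bases before the CDR3.
TRAJ32: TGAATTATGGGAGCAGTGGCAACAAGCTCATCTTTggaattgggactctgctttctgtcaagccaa
TRAJ2: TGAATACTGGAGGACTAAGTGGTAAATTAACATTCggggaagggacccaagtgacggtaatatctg
TRAJ31: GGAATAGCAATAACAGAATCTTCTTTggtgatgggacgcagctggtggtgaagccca
TRAJ43: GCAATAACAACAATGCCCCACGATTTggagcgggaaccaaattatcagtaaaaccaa
TRAV15-1-DV6-1: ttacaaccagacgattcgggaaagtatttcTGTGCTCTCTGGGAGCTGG
TRAV16N: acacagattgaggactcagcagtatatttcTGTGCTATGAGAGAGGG
TRAV4D-4: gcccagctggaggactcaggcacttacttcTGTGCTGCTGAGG
TRAJ32 and TRAJ2 brought 35 bases and TRAJ31 and TRAJ43 brought 26. TRAV15-1-DV6-1 brought 19 bases, TRAV16N 17 and TRAV4D-4 13.

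Named long clonotypes are printed next as their CDR3 nucleotide sequence, with bases assigned to neither V nor J in capitals. They are the largest of each time point, the 3 amino-acid sequences found in most samples, and the longest found in at least 2 samples. Each of the 3 amino-acid sequences is printed in an example form, a nucleotide sequence with a single V gene. The number of samples beside it is that of the amino-acid sequence.
1.5 months, TRAV15-2-DV6-2 with TRAJ17: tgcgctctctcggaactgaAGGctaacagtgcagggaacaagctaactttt
3 months, TRAV15N-1 with TRAJ16: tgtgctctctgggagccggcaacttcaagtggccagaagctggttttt
5 months, TRAV12N-1 with TRAJ52: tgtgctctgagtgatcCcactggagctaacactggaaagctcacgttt
7 months, TRAV16N with TRAJ38: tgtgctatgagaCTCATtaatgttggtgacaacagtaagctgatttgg
9 samples, TRAV12D-3 with TRAJ28: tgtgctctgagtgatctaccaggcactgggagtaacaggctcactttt
7 samples, TRAV7D-2 with TRAJ32: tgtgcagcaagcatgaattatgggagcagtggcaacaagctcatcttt
7 samples, TRAV21/DV12 with TRAJ50: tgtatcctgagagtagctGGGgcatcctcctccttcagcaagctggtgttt
2 samples, TRAV15-1-DV6-1 with TRAJ32: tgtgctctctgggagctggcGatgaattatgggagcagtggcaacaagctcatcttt
The last of these had 19 residues and a total of 62 counts in 1.5 months replicate 1 and 3 months replicate 4.

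Functional counts ranged from 476957 to 882128 per sample, and a floor of 3 counts stood for 0.00034% to 0.000629% of them. This floor removed no clonotype, so those below it count as members and as present in a sample. The labels do not say that samples were separate mice, so p-values measure the spread between these samples. Pairs of libraries shared unequal numbers of nucleotide clonotypes. The median pair shared 0.592% of its long clonotypes (the number shared over the number in either), while 3 months replicate 4 shared 8.18% with 5 months replicate 1 (54 long clonotypes) and 4.63% with 1.5 months replicate 1 (40). Shares of CDR3s found in another sample are therefore also given without these 2 pairs, while counts of CDR3s by number of samples include them. The next pair, 3 months replicates 1 and 2, shared 3.22% (23 long clonotypes) and was kept throughout. Among long clonotypes, 191 (4.22%) were at least 100 times more abundant, as a share, in another library, against 3.12% of those of 12 to 15 residues.

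Long loops were mostly only just long. Of the 4531, 3556 (78.5%) had 16 residues, 791 (17.5%) had 17, 137 (3.02%) had 18 and 15 (0.331%) had 19. On either side of the bound, 15 residues took 13.6% ± 0.481 of functional clonotypes and 16 residues 4.49% ± 0.447 (SD, n = 13). A further 32 clonotypes had 20 residues or more, and 22 of these had between 28 and 42. These 22 lay in 10 samples, had 45 to 79 bases assigned to neither segment and at most 149 counts, and 7 of them had 1 count. In 21 of the 22 the CDR3 held a run of at least 20 bases identical to a J gene other than the assigned one, TRAJ18 in 13 of them, and 16 were assigned TRAJ17. The heptamer of a recombination signal (CACTGTG or its reverse complement CACAGTG) was found in 18 of the 22, in 0 of the 10 with 20 to 27 residues, in 7 of 4499 with 16 to 19 and in 46 of 69607 with 12 to 15. These shorter windows hold fewer places for a match.

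Out-of-frame rearrangements, which make no chain, were more often long than functional ones. Junctions of 47 bases or more, which for functional junctions means 48 or more, took 5.73% ± 0.481 of functional clonotypes and 14.96% ± 2.5 of out-of-frame clonotypes (SD, n = 13). The out-of-frame share ran from 9.61% in 5 months replicate 1 over a median of 16.01% to 17.8% in 1.5 months replicate 1, and the functional share from 4.61% to 6.21%, so the ranges did not overlap. The functional share was lower in 13 of 13 samples, with a difference of -9.23 ± 2.26 percentage points (two-sided exact sign-flip permutation test, p = 0.000244, the smallest it can give with 13 samples). Comparing within J genes, weighted by out-of-frame junctions, the shares were 9.34% ± 1.49 and 14.9% ± 2.54, a difference of -5.55 ± 1.68 points in the same direction in 13 of 13 samples (p = 0.000244, exact). The out-of-frame clonotypes numbered 684 to 1110 per sample. Rearrangements in frame with a stop codon, 28 to 42 per sample, were long in 9.10% ± 4.25 (2.78% to 19.05%), and their difference from functional ones was not tested.

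**Figure D1:**
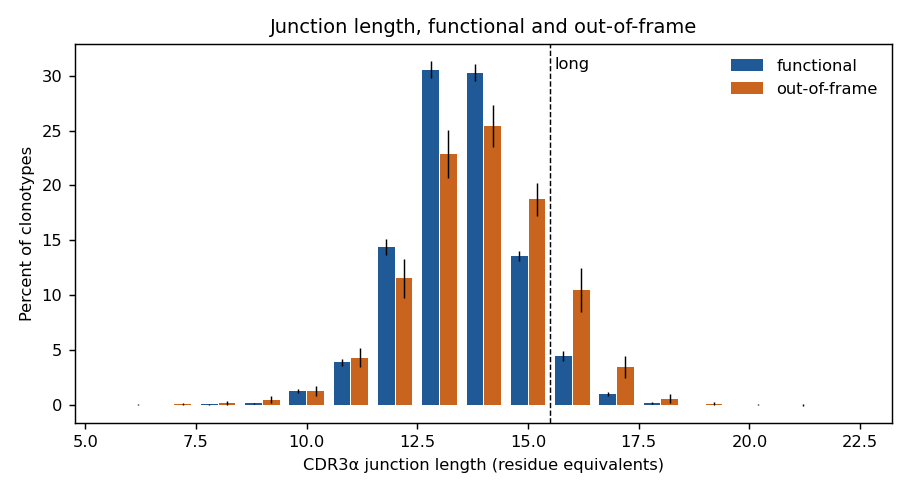
Percent of functional (blue) and out-of-frame (orange) clonotypes at each junction length in residue equivalents (bases divided by 3, rounded), from 6 to 22. Bars are means and error bars SDs over 13 samples, the dashed line marks the bound between 15 and 16, and above it the out-of-frame bars are the taller, at 16 with 10.5% against 4.49%.

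Each part of the junction was longer in long clonotypes. Since length chose the members, these values describe them. The CDR3 had 49.1 ± 0.355 bases in long clonotypes and 40.5 ± 0.0674 in those of 12 to 15 residues (means of 13 sample means, SD). Of the difference of 8.65 bases, the J part took 4.38 (31.2 against 26.9 bases), the V part 2.44 (14.7 against 12.3) and the net bases between them 1.83 (3.16 against 1.33). The J part therefore made up 50.6% of the added length, the V part 28.2% and the stretch between them 21.2%. Bases of germline V and J not kept in the CDR3 averaged 1.92 ± 0.148 in long clonotypes and 4.47 ± 0.0777 in the others. V and J parts are the aligner's, and they overlapped in 12.95% of long and 21.7% of the other clonotypes. The V part ran past the germline V end in 38.7% ± 2.88 of long and 23.2% ± 0.786 of the others, and the J part past its germline start in 25.2% ± 3.37 and 17.2% ± 0.634. With both parts held to at most their germline length, J took 48.6% of the added length, V 24.1% and the stretch between them 27.3%. Inserted bases then averaged 4.75 ± 0.426 against 2.58 ± 0.0535 and germline bases not kept 2.997 ± 0.147 against 4.95 ± 0.0659. The capitals in the clonotypes printed above and the inserted bases given elsewhere follow the aligner's parts.

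Most long loops came from segments that were long before trimming. The germline V and J parts together reached 48 bases, enough for 16 residues without any insertion, in 54.7% ± 3.13 of long and 8.78% ± 0.414 of the other clonotypes. Inserted bases, counted as those between the V and J parts, averaged 3.67 ± 0.401 in long clonotypes and 2.10 ± 0.0581 in the others. No inserted base was present in 19.5% ± 2.49 of long and 30.9% ± 1.01 of the other clonotypes, and 6 or more were present in 18.02% ± 1.72 and 5.92% ± 0.302. Within lengths, inserted bases averaged 3.13 ± 0.150 at 16 residues, 3.66 ± 0.487 at 17 and 4.20 ± 1.24 at 18, against 2.75 ± 0.159 at 15.

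J gene use followed germline length closely. Among the 43 J genes with at least 100 functional clonotypes, the 6 with 26 germline CDR3 bases gave a long CDR3 in 0.24% of clonotypes, the 5 with 29 bases in 2.76%, the 8 with 32 bases in 10.7% and the 5 with 35 bases in 26.7%. Pearson's r of germline bases with the percent long was 0.844 over these 43 genes, which share libraries and enter the length itself. J genes with 34 bases or more were used by 42.9% ± 2.57 of long and 8.37% ± 0.397 of the other clonotypes, and those with 27 or fewer by 2.41% ± 0.601 and 29.9% ± 0.772. The V end behaved alike. The percent long was 3.39% for the 54 V genes with 13 germline bases, 6.79% for the 23 with 14, 23.3% for the 2 with 16, 12.7% for the 4 with 17 and 49.0% for the 5 with 19, all in the TRAV15 family (r = 0.900 over 88 V genes).

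**Figure D2:**
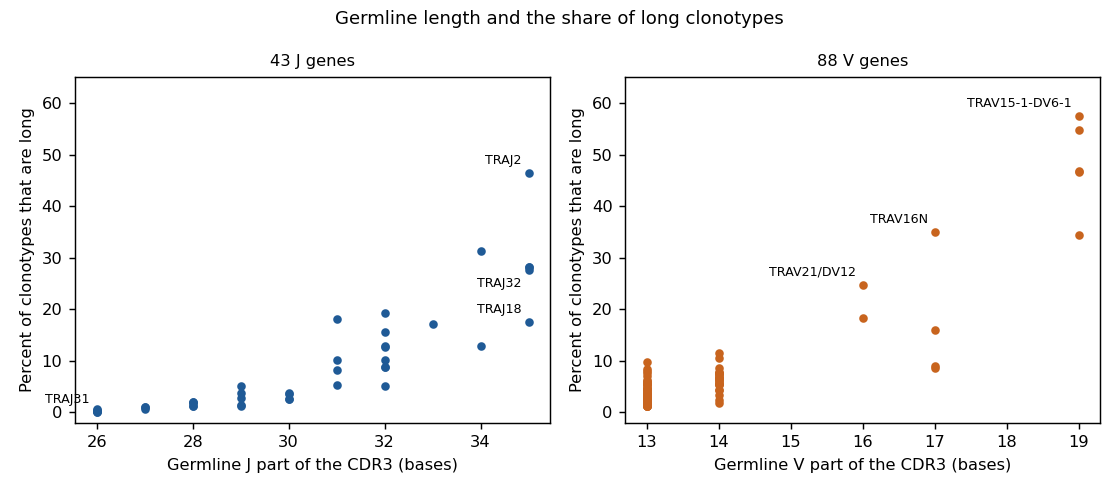
Percent of a gene's functional clonotypes that are long against the germline bases it brings into the CDR3, for 43 J genes (left) and 88 V genes (right) with at least 100 functional clonotypes, all samples pooled. Each point is a gene, and the percent rises from under 1 for J genes of 26 bases to 46.5 for TRAJ2 and from 3.39 for V genes of 13 bases together to 57.4 for TRAV15-1-DV6-1.

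TRAJ32 was the most used J gene of long clonotypes. Its share was 11.8% ± 2.47 (lowest 6.31%, median 11.2%, highest 15.7% of 13 samples) against 1.99% ± 0.239 of clonotypes of 12 to 15 residues. TRAJ52 followed with 7.06% ± 1.60 against 1.17%, TRAJ42 with 6.88% ± 1.23 against 2.09%, TRAJ18 with 6.81% ± 1.41 against 2.05% and TRAJ2 with 5.65% ± 1.04 against 0.426%. These 5 were higher among long clonotypes in 13 of 13 samples, and for TRAJ32 the ranges did not overlap, since its highest share at 12 to 15 residues was 2.31%. On the log2 scale the largest fold differences (edgeR quasi-likelihood test, sample as a block) were TRAJ2 with 3.73 ± 0.161 (SE) and TRAJ28 with 2.80 ± 0.174, then TRAJ32 with 2.59, TRAJ52 with 2.59, TRAJ53 with 2.56 and TRAJ50 with 1.89.

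The J genes lowest among long clonotypes were TRAJ31, with 4 long clonotypes of 4248 functional ones and a log2 fold difference of -5.75 ± 0.360 (SE), TRAJ33 with 2 of 1584 (-5.27), TRAJ43 with 4 of 1860 (-4.60), TRAJ21 with 11 (-4.44), TRAJ13 with 13 (-3.88) and TRAJ12 with 23 (-3.06). Since J length enters CDR3 length, these are values and not evidence of a preference. Of 42 J genes tested, 18 were higher and 21 lower in long clonotypes, so a call was the rule and not the exception (92.9% in either direction, 42.9% higher and 50% lower). With DESeq2, whose size factors shifted the median log2 difference of all J genes by -1.08, the split was 10 higher and 26 lower, and TMM shifted it by -0.24. The J genes given above with a fold difference kept their direction under both.

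Among V families TRAV7 led with 17.4% ± 2.37 of long clonotypes, against 19.1% ± 0.824 of those of 12 to 15 residues. TRAV12 had 12.4% ± 1.62 against 11.4%, and TRAV6 11.2% ± 2.19 against 9.39%. The log2 fold differences were -0.13 ± 0.0549 (SE) for TRAV7, 0.13 ± 0.0673 for TRAV12, which TMM turned to -0.0349, and 0.26 ± 0.0722 for TRAV6 (edgeR quasi-likelihood test, adjusted p = 0.0210, 0.0567 and 0.000654). The call for TRAV7 was lost with DESeq2 (adjusted p = 0.145) and without 3 months replicate 3 or 7 months replicate 2 (highest edgeR adjusted p = 0.0705), and that for TRAV6 with TMM (adjusted p = 0.274), which shifted the median of all families by -0.17. TRAV12 was called when any of 4 samples was left out, 3 months replicates 2 and 4, 5 months replicate 2 and 7 months replicate 1 (lowest edgeR adjusted p = 0.0290). The families that set long loops apart were smaller. TRAV15 took 9.91% ± 2.04 (lowest 5.23%, median 10.3%, highest 12.1%) against 0.658% ± 0.153, and its ranges did not overlap. TRAV16 took 9.51% ± 2.31 (lowest 6.29%, median 9.68%, highest 14.9%) against 2.26% ± 0.218, again without overlap. The log2 fold differences in the edgeR quasi-likelihood test were 3.88 ± 0.121 (SE) for TRAV15, 2.36 ± 0.145 for TRAV21, 2.06 ± 0.104 for TRAV16, 1.82 ± 0.276 for TRAV2, 0.89 ± 0.196 for TRAV17 and 0.79 ± 0.215 for TRAV19. In the other direction stood TRAV4 (-1.41 ± 0.0969), TRAV8 (-1.38), TRAV14 (-1.02), TRAV13 (-0.92), TRAV9 (-0.76) and TRAV5 (-0.63). Of 19 families tested, 89.5% were called, with 42.1% higher and 47.4% lower in long clonotypes. The V end is part of CDR3 length as the J start is, so these are values too, and not evidence of a preference.

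V use was also set against clonotypes of 12 to 15 residues reweighted, within each sample, to the J use of long clonotypes, which leaves the V end within the length. TRAV15 (9.91% against 0.353%), TRAV16 (9.51% against 1.49%) and TRAV21 (4.74% against 1.60%) remained higher in 13 of 13 samples (exact sign-flip permutation test, adjusted p = 0.000515 each). TRAV6 was at 11.2% against 7.90%, also higher in 13 of 13 (adjusted p = 0.000515, same exact test), while TRAV7 (17.4% against 17.2%, adjusted p = 0.792, exact) and TRAV12 (12.4% against 11.3%, adjusted p = 0.117, exact) did not pass. TRAV4 (3.97% against 11.5%) and TRAV14 (7.46% against 15.4%) remained lower in 13 of 13. For TRAV19 the direction turned, with 1.51% against 1.78% (adjusted p = 0.0371, lower in 11 of 13 samples, same exact test). TRAV17 no longer passed the test (adjusted p = 0.803). V genes that the annotation also assigns to the δ locus, marked DV, were used by 23.7% ± 3.17 of long and 10.3% ± 0.50 of the other clonotypes. Copies within a mouse V family are near-identical, so the reads of single members can be split between them, which is why families were tested.

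The pairs of V family and J gene that gave the most long clonotypes were TRAV6 with TRAJ32 (88 of 195 functional clonotypes long), TRAV7 with TRAJ32 (80 of 295) and TRAV7 with TRAJ18 (77 of 429). TRAV15 with TRAJ32, which joins the long germline ends printed above, was long in 48 of 54 (88.9%).

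Long clonotypes numbered 496 and 386 at 1.5 months, 422, 315, 358 and 408 at 3 months, 306 and 222 at 5 months, and 248, 369, 338, 286 and 377 at 7 months. The 5-month samples lay below both 1.5-month samples, while 3 months overlapped them and 7 months lay below. Against the mean of 441 ± 77.8 (SD, n = 2) at 1.5 months, the number was lower by 177 at 5 months (264 ± 59.4, n = 2, exact permutation p = 0.0263, corrected over the 3 time points). The differences were -117.4 at 7 months (323.6 ± 55.3, n = 5, exact p = 0.0825) and -65.25 at 3 months (375.75 ± 48.9, n = 4, exact p = 0.413). Over the 18 comparisons of 6 measures the 5-month value did not pass (Benjamini-Hochberg p = 0.474 from the exact test). Leaving out a sample of 1.5 or 5 months leaves a single one in its group, so these differences are given without a test. Without 1.5 months replicates 1 and 2 in turn the 5-month difference was -122 and -232. Without 5 months replicates 1 and 2 in turn it was -219 and -135. Without 1.5 months replicate 1 the differences at 7 and 3 months were -62.4 and -10.25, and without replicate 2 they were -172.4 and -120.25. Counting clonotypes of at least 2 counts, both the 5-month difference (-150, exact permutation p = 0.000196) and the 7-month difference (-98.7, exact permutation p = 0.00286) passed. These p-values were corrected over the 3 time points only. All functional clonotypes also differed in number over the same samples, from 7239.5 ± 1061 at 1.5 months to 5102.5 ± 399.5 at 5 months and 5635 ± 598 at 7 months (SD), and the share takes this into account.

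The long share of clonotypes was 6.21% and 5.95% at 1.5 months, 5.94%, 5.52%, 5.86% and 6.14% at 3 months, 5.68% and 4.61% at 5 months, and 4.90%, 5.82%, 6.02%, 5.68% and 6.16% at 7 months. All time points but 5 months overlapped the 1.5-month samples. Relative to 6.08% ± 0.183 at 1.5 months, the share differed by -0.213 points at 3, -0.934 at 5 and -0.363 at 7 months, none of which passed (p = 0.920, 0.101 and 0.665 in the exact permutation test). With at least 2 counts per clonotype the 5-month difference was -1.06 points (exact permutation p = 0.0447), and with a bound of 17 residues -0.161 (exact p = 0.602). Without 5 months replicate 1 it was -1.47 points and without 5 months replicate 2 -0.396. Each leaves a single 5-month sample, so no test is given. Without 1.5 months replicate 1 the 3-month and 7-month differences were -0.0836 and -0.233, and without 1.5 months replicate 2 they were -0.343 and -0.493. The 3-month difference was -0.0981 without 3 months replicate 2, and the 7-month one -0.160 without 7 months replicate 1. The long share of counts was 5.53% and 5.97% at 1.5 months, 4.68%, 5.35%, 5.81% and 6.54% at 3 months, 4.92% and 4.86% at 5 months, and 4.15%, 5.12%, 5.18%, 5.54% and 7.22% at 7 months. It ranged most widely at 7 months, where both the lowest and the highest sample lay. The differences from 1.5 months were -0.156, -0.859 and -0.310 points at 3, 5 and 7 months (exact permutation p = 0.993, 0.62 and 0.943). The direction at 3 months turned without 3 months replicate 1 (0.148) or 1.5 months replicate 2 (0.0641), and that at 7 months without 7 months replicate 1 (0.0137).

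**Figure D3:**
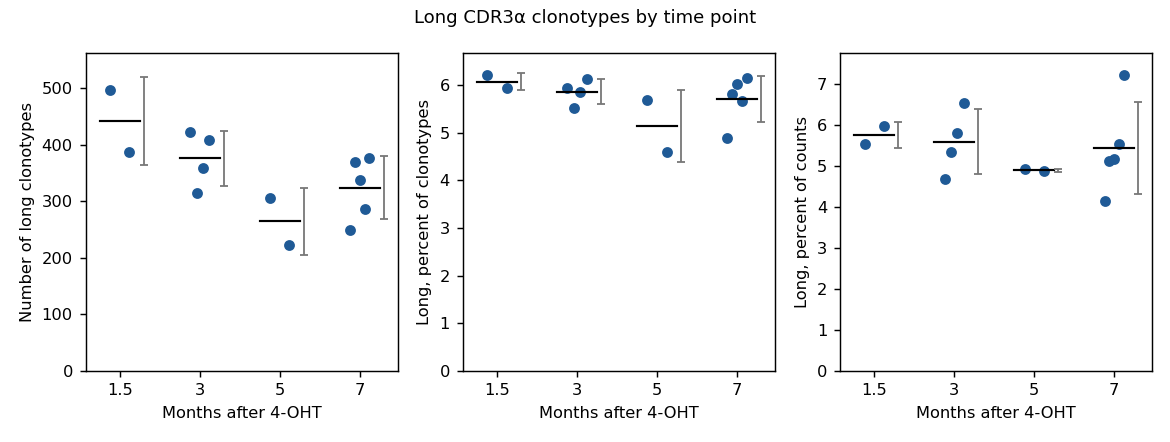
Number of long clonotypes, their percent of functional clonotypes and their percent of functional counts at 1.5, 3, 5 and 7 months after 4-OHT. Points are samples (n = 2, 4, 2 and 5), black lines means and grey bars SDs, and the numbers spread from 222 to 496 while the percent of clonotypes stays between 4.61 and 6.21.

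Months after 4-OHT correlated with the number of long clonotypes at r = -0.565 (permutation p = 0.0440, Spearman rho = -0.572, permutation p = 0.0437, two-sided, n = 13), which did not pass over the 6 measures (Benjamini-Hochberg p = 0.264 and 0.262). Without both 1.5-month samples, the farthest from the median month, r was -0.362. For the long share of clonotypes r was -0.288 (permutation p = 0.356), for the share of counts -0.156 (p = 0.613), for clone size 0.0391 (p = 0.902), for inserted bases 0.479 (p = 0.0932) and for sharing -0.280 (p = 0.352). Spearman's rho was -0.314, -0.245, 0.0345, 0.400 and -0.242 for the same 5 measures (permutation p = 0.174 to 0.914, the lowest for inserted bases). Without both 1.5-month samples r was -0.118 for the share of clonotypes, -0.0694 for the share of counts, 0.00318 for clone size, 0.485 for inserted bases and -0.524 for sharing.

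Inserted bases per long clonotype averaged 3.43 and 3.60 at 1.5 months, 3.46, 3.37, 3.43 and 3.38 at 3 months, 3.61 and 4.14 at 5 months, and 3.52, 3.31, 4.07, 4.70 and 3.73 at 7 months. The highest value, in 7 months replicate 4, came from a library with 7 of the 32 clonotypes of 20 residues or more. Restricted to 16 to 19 residues, all samples lay between 3.08 and 3.45, with 3.24 in that library. Both 1.5-month samples (3.13 and 3.08) then lay below all 5-month and 7-month samples, while 3 months overlapped them. The means were 3.10 at 1.5 months, 3.28 at 3 and at 5 months, and 3.32 at 7 months. Neither version passed the exact permutation test at any time point (lowest p = 0.572 for all lengths and 0.126 for 16 to 19).

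V and J use of long clonotypes was tested for change with time in a model over all 4 groups. At 7 against 1.5 months and at 7 against 3 months, edgeR called 0% of 13 V families and 0% of 20 J genes, as did DESeq2 with 0. At an unadjusted p under 0.05 edgeR found none except TRAJ4 at 7 against 3 months, with 4.27% ± 1.59 (n = 5) against 2.23% ± 0.373 (n = 4), a log2 fold difference of 0.87 ± 0.324 (SE) and an edgeR adjusted p of 0.20. TRAV5 had the smallest p among V families at 7 against 3 months (-0.65 ± 0.390, adjusted p = 0.923), TRAV6 at 7 against 1.5 months (0.28 ± 0.211, adjusted p = 0.797), and TRAJ24 among J genes there (0.82 ± 0.497, adjusted p = 0.964). TRAV15, the family most tied to length, took 9.48% and 11.1% of long clonotypes at 1.5 months, 12.1%, 12.1%, 8.94% and 10.3% at 3 months, 5.23% and 9.01% at 5 months, and 11.3%, 7.05%, 9.47%, 11.9% and 10.9% at 7 months. TRAJ32 took 15.7% and 10.9%, then 11.1%, 15.2%, 11.2% and 9.56%, then 13.1% and 6.31%, and then 11.7%, 13.01%, 10.9%, 11.2% and 14.1%. Each segment had its lowest value in a 5-month sample, and the only time points that did not overlap were 5 and 1.5 months for TRAV15.

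Clone size gave a difference whose direction hung on the rarest clonotypes. Mean log2 counts were 4.70 ± 0.569 for long clonotypes and 4.89 ± 0.471 for those of 12 to 15 residues, a difference of -0.19 ± 0.246 (SD, n = 13) that ran from -0.76 in 5 months replicate 1 to 0.16 in 5 months replicate 2. It was negative in 11 of 13 samples (exact sign-flip permutation test, two-sided, p = 0.0115). Clonotypes with 1 count made up 21.9% ± 6.5 of long and 16.7% ± 5.24 of the other clonotypes, more among long in 13 of 13 samples (p = 0.000244, exact). Among clonotypes with at least 2 counts the direction turned, with 6.00 ± 0.307 for long and 5.86 ± 0.284 for the others, higher in 12 of 13 samples (0.14 ± 0.128, exact permutation p = 0.00171), and with at least 10 counts the difference was 0.05 ± 0.0754 (exact p = 0.0295, higher in 10 of 13). The median long clonotype had 28.5 to 103 counts, depending on the sample.

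Expanded clonotypes, above 0.1% of functional counts, numbered 58 among long ones, in 12 samples, 49 of 16 residues, 8 of 17 and 1 of 18 or more. They made up 1.33% ± 0.837 of long clonotypes against 1.67% ± 0.521 at 12 to 15 residues (higher in 6 and lower in 7 of 13 samples, exact sign-flip permutation p = 0.109), a difference that did not pass. The largest was the TRAV16N clonotype of 7 months replicate 5, with 5924 counts or 1.11% (Wilson 95% interval 1.09% to 1.14% for counting error only), which ranked 6 in its library. It was found in no other sample. The largest at 3 months, TRAV15N-1 with TRAJ16, had 0.444% (0.427% to 0.462%) in replicate 4 and at most 7 counts in each of 3 other samples. The aligner gave it no inserted base, although 1 base of its V part differs from the germline TRAV15N-1 end. The TRAV12N-1 clonotype of 5 months replicate 1 had 0.401% (0.384% to 0.418%) and was in no other sample. The TRAV15-2-DV6-2 clonotype of 1.5 months replicate 2 had 0.225% (0.213% to 0.238%) and 2 counts in 1 other sample.

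Long CDR3s were less often found in another sample. Of distinct long CDR3 amino-acid sequences, 30.6% ± 5.50 were present in at least 1 of the other 12 samples, against 59.96% ± 2.92 at 12 to 15 residues (SD, n = 13). The long share was 29.3% and 27.1% at 1.5 months, 34.8%, 32.4%, 25.9% and 39.9% at 3 months, 41.3% and 32.0% at 5 months and 29.4%, 30.03%, 27.4%, 22.5% and 25.4% at 7 months, and its highest value lay below the lowest at 12 to 15 residues, 56.4%. The difference was -29.4 ± 3.43 points, lower in 13 of 13 samples (exact sign-flip permutation test, p = 0.000244). Samples share sequences mutually and are not fully independent in this test. Without the 2 pairs of libraries that overlapped most, the shares were 27.3% ± 4.45 and 58.1% ± 2.23, and 3 months replicate 4 went from 39.9% to 19.7%, 5 months replicate 1 from 41.3% to 27.2% and 1.5 months replicate 1 from 29.3% to 21.3%.

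Sharing was lower at each length above 13 residues and with more inserted bases. It was 64.8% ± 2.60 at 12 residues, 66.0% ± 2.18 at 13, 58.8% ± 3.8 at 14, 45.7% ± 4.80 at 15, 33.6% ± 5.41 at 16, 21.5% ± 8.39 at 17 and 16.3% ± 10.8 at 18. Among sequences without inserted bases it was 42.4% ± 7.85 for long and 72.8% ± 2.30 for the others, with 1 to 3 it was 35.2% ± 6.91 and 62.8% ± 2.83, and with 4 or more it was 21.0% ± 5.96 and 37.8% ± 5.74. Weighted to the insertions of long clonotypes, the difference was -23.6 ± 3.00 points (lower in 13 of 13 samples, exact sign-flip permutation p = 0.000244). For nucleotide clonotypes it was smaller, 16.3% ± 6.48 against 25.4% ± 4.24 (-9.16 ± 3.49 points, lower in 13 of 13, exact p = 0.000244). Without the 2 library pairs, sharing was 63.02% at 12 residues, 64.7% at 13, 56.8% at 14, 43.1% at 15, 30.3% at 16, 18.4% at 17 and 12.3% at 18. For long against the other sequences it was then 39.5% and 71.6% without inserted bases, 31.8% and 61.03% with 1 to 3, and 17.8% and 35.2% with 4 or more. Weighted to the insertions the difference was then -24.8 ± 2.89 points and for nucleotide clonotypes -9.91 ± 2.90, both lower in 13 of 13 samples (p = 0.000244, exact). A long amino-acid sequence was encoded by 2 or more nucleotide sequences in 8.82% of 3640 cases, against 24.8% of 35182 at 12 to 15 residues.

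**Figure D4:**
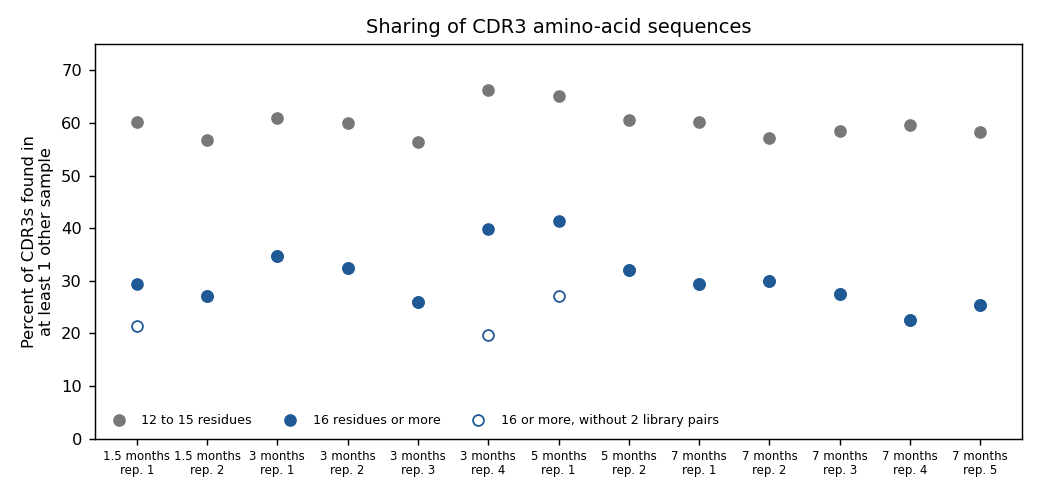
Percent of each sample's distinct CDR3 amino-acid sequences found in at least 1 other sample, for 16 residues or more (blue) and 12 to 15 residues (grey). Filled blue points (22.5 to 41.3) lie below the grey points (56.4 to 66.2), and open blue circles, drawn for long CDR3s without the 2 library pairs of highest overlap, lie between 19.7 and 34.8.

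No long CDR3 was in all 13 samples, whereas 63 of 12 to 15 residues were. Of the 3640, 3075 (84.5%) were in 1 sample, 427 in 2, 81 in 3, and 57 in 4 or more. The most widespread was the TRAJ28 amino-acid sequence whose TRAV12D-3 form is printed above. It was in 9 samples under 6 nucleotide sequences and 7 V genes, and the printed form was in 2 of them. Over all its forms it had 0.303% of counts in 3 months replicate 2, 0.118% in 3 months replicate 4 and at most 0.0287% elsewhere, and was not detected in 3 months replicate 3 or in 7 months replicates 2, 3 and 4. The TRAJ32 amino-acid sequence printed above in its TRAV7D-2 form was in 7 samples under 3 nucleotide sequences and 6 V genes, the printed form in 2 samples. It had 0.430% over all its forms in 7 months replicate 5 and at most 0.0284% in the other 6. TRAV21/DV12 with TRAJ50 was in 7 samples under 3 nucleotide sequences and 1 V gene, with 0.129% in 7 months replicate 5 and 0.115% in 3 months replicate 2. Each exceeded 0.1% in 1 or 2 libraries and was at most 0.0359% in the others.

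By time point, sharing of long CDR3s was 28.2% ± 1.54 at 1.5 months, 33.2% ± 5.83 at 3 months, 36.6% ± 6.58 at 5 months and 26.95% ± 3.08 at 7 months, and no difference from 1.5 months passed the exact permutation test (p = 0.445, 0.190 and 0.976). Without the 2 pairs the means were 24.2%, 28.2%, 29.6% and 26.95% (exact p = 0.641, 0.540 and 0.809). Overlap between 3 months replicates 1 and 2, the next pair, is still part of the 3-month mean.

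Residues were counted in the middle of the loop, leaving out 3 at either end, with each clonotype once. Long loops held more leucine, which took 3.92% ± 0.276 of residues against 1.35% ± 0.0637 at 12 to 15 residues, and more of the small residues glycine (20.7% against 18.9%) and serine (16.4% against 14.7%). Glutamate was higher by 1.2 ± 0.298 points and proline by 1.06 ± 0.312, and tryptophan, phenylalanine and histidine were higher by 0.330, 0.430 and 0.186. Asparagine was lower by 4.07 ± 0.424 points (10.5% against 14.5%), the aromatic tyrosine by 3.20 ± 0.320 (2.94% against 6.14%), glutamine by 1.55 ± 0.270, threonine by 0.683 ± 0.354 and lysine by 0.320 ± 0.212. Each of these was in the same direction in 13 of 13 samples except histidine, in 11 of 13 (exact sign-flip permutation test, adjusted p = 0.000407, and 0.00225 for histidine). Of 20 amino acids, 75% passed, with 50% higher and 25% lower, the others that passed being isoleucine and arginine, higher by 0.160 and 0.269 in 10 of 13 samples each (adjusted p = 0.0352 and 0.0469, exact).

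Several of these differences turned or were lost when J genes were held. Compared within J genes, weighted by their long clonotypes, 85% of the 20 passed. Glycine turned lower in long loops, 20.8% against 23.4%, as did serine, 16.4% against 17.8%, both in 13 of 13 samples (exact sign-flip permutation test, adjusted p = 0.000407). Tyrosine (2.96% against 3.00%, adjusted p = 0.303, exact) and glutamine (2.25% against 2.16%, adjusted p = 0.0971, exact) no longer passed. Asparagine, the largest difference without regard to J, shrank to -0.626 points (10.4% against 11.05%, lower in 13 of 13 samples, adjusted p = 0.000407, exact). Leucine (1.31 points), glutamate (1.79), proline (1.17), tryptophan (0.638), arginine (0.965) and aspartate (0.633) were higher, and lysine was lower by 2.34 points, each in 13 of 13 samples. V genes were held in neither comparison, and the germline V ends printed above run past the 3 residues left out. As with V and J use, the residue shares are values and not evidence of a preference, and the part that V use has in them was not tested. Phenylalanine turned to a difference of -0.118 points (lower in 10 of 13 samples, adjusted p = 0.00763, exact permutation test). A second cysteine inside the loop was found in 1.67% ± 1.10 of long and 1.02% ± 0.266 of the other clonotypes. Long loops have more positions, and as a share of middle residues cysteine took 0.160% and 0.132% (adjusted p = 0.334, exact permutation test), with a difference of -0.00478 points within J genes (adjusted p = 0.728, exact).

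**Figure D5:**
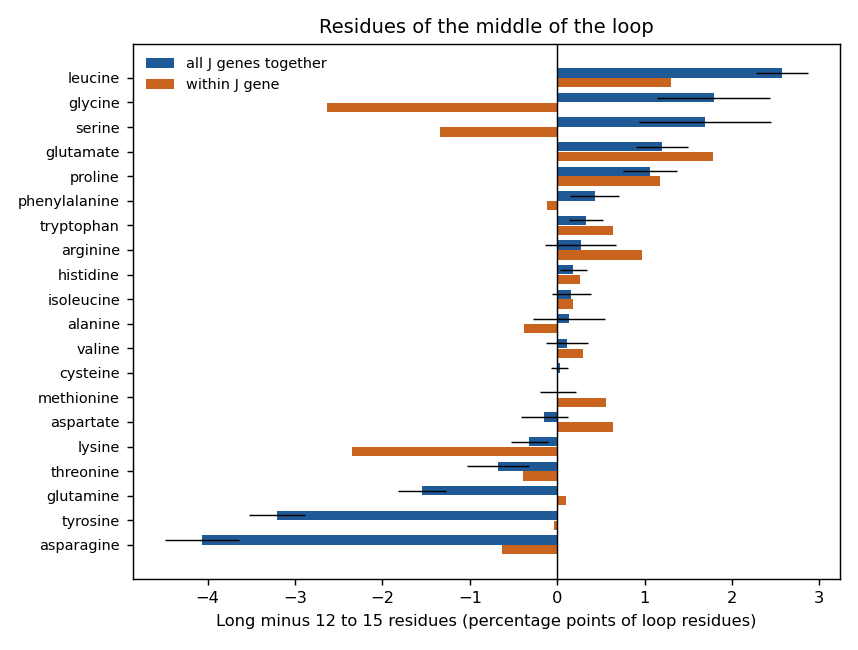
Difference in the percent of middle-loop residues, long minus 12 to 15 residues, for 20 amino acids, with all J genes together (blue, error bars SD over 13 samples) and within J genes (orange). Leucine, glutamate and proline are higher in both, while glycine and serine are higher together (1.79 and 1.69 points) and lower within J genes (-2.63 and -1.35).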

How the data were processed

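TCRα transcripts of 13 sorted samples were sequenced by the authors after 5′ RACE, and clonotypes were assembled with MiXCR against GRCm38 per the labels and the study's methods. The methods also give VDJtools steps for error correction and for removal of nonfunctional clonotypes. The deposited tables give a count per clonotype (reads or molecules is not stated), its fraction of the sample, which the authors computed and which was not used, and the positions of the V end and J start in the CDR3, from which bases of V, J and neither were taken. Rows with a stop or frameshift (459 in frame with a stop, 11364 out of frame) are still in these tables, so that removal had not been applied to them, and whether the error correction had is not stated. These rows were kept apart. Library totals were 509818 to 936831 counts, and their intervals and floors cover counting error only.

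Members and lists were chosen with earlier results of these data known. Values were computed with Python 3.11.15, numpy 2.4.6, pandas 2.3.3 and scipy 1.17.1. Time points were compared with 1.5 months by an exact permutation test over 540540 arrangements, with the maximum over 3 comparisons, and called at a corrected p under 0.05. Trends used 100000 permutations. Length classes were compared within samples by an exact sign-flip test (8192 flips). V and J use was tested on numbers of clonotypes with edgeR 4.0.16 in R 4.3.3 (quasi-likelihood, filterByExpr, library totals), with DESeq2 1.42.0 as an alternative, all adjusted by Benjamini-Hochberg. The code was tested on simulated data. Segment positions and germline ends came from GENCODE vM21, in which all 148 names were found. Named segments were the 5 most used among long clonotypes, up to 6 in either direction by fold difference past an adjusted p of 0.05, and for time the smallest p. Named residues were the 5 largest differences in either direction. Named clonotypes were the largest of each time point, the 3 in most samples and the longest in at least 2. The other residues and the single genes of the printed sequences were chosen after their values were seen. Alternatives were minimum counts of 2 and 10, a bound of 17 residues, removal of clonotypes 100 times more abundant in another library, thinning to the smallest total (10 draws), other definitions, a replicate block and each sample left out. Lengths of 16 to 19, out-of-frame comparisons within J genes, weighted by counts or up to 60 bases, J use held for V families, sharing within inserted bases and sharing by time, of nucleotide clonotypes and within inserted bases without the closest libraries, and V and J parts held to their germline length were added after the data were seen. Figures were drawn with matplotlib 3.10.9.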

Additional observations from a re-analysis of the deposited data

Results flagged for a closer look

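The largest long clonotype of a sample was compared within the 3-month and 7-month groups. In 7 months replicate 5 it held 1.11% of functional counts, while in the other 4 samples of 7 months it held 0.0929% to 0.344%, a gap of 0.754 of the group's range and beyond Dixon's 95% critical value for 5 samples. This was the only sample that stood apart among 44 groups of values tested in this way, of which chance flags about 1 in 20.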

How the results depend on the processing

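Of 341 alternative values for the main comparisons 319 kept their direction and their side of the threshold. Clone size turned from -0.19 to 0.14 with a minimum of 2 counts and 0.0519 with 10, and was -0.10 (exact sign-flip permutation p = 0.0596) as a log2 ratio of mean counts. The removed clonotypes with few counts account for the turn by construction. By this threshold the number of long clonotypes passed at 1 later time point, 5 months, which did not pass over the 18 comparisons. It passed at 2 with a minimum of 2 or of 10 counts, and at 0 with a bound of 17 residues (-33.5 at 5 months) or only the 2 time points compared (-177 at 5 months, where 2 against 2 samples allow no exact permutation p under 0.333). Leaving out each sample gave -232 to -122 at 5 months. The long share of clonotypes passed at 1 time point with a minimum of 2 counts. Without 5 months replicate 1, which leaves a single 5-month sample, the 5-month difference in this share was -1.47 points. The cause was not tested.

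Replicate numbers recur across time points, but the labels do not say that they pair samples. Deviations of J gene use correlated at 0.0907 on average over 14 same-numbered pairs (-0.316 to 0.249) and at -0.0270 over 46 others, and 5 of 13 samples matched best with their own number. With a replicate block the number passed at 0 time points (-177 at 5 months, exact permutation p = 0.128), and the long share of counts at 1 (7 months, -1.23 points, exact p = 0.0208). For J genes at 7 against 3 months, the block called 1 (TRAJ4, 1.13 ± 0.284, edgeR adjusted p = 0.00540), and leaving out each sample 0 to 1 (1 without 7 months replicate 5). The block changed no other call.

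Over all residues of the CDR3, the share of lysine (0.443 points) and the share of threonine (0.582) were higher in long loops. Within J genes, glycine (-2.63), serine (-1.35) and glutamine (0.0975) turned. Single V genes gave 36 calls of 63. TRAV12, not called at 0.13, was -0.0349 with TMM, and with J use held TRAV7 was 0.0174 and TRAV19 -0.24. The V and J tests by time rest on 222 to 496 long clonotypes per sample, and the size of change they could detect was not tested.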
